A study of Mus musculus with 6 samples.

Results

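Solute carriers are membrane proteins that move small molecules (amino acids, sugars, nucleosides, vitamins, metals and other ions) across the plasma membrane and the membranes of organelles, each family by number having its own typical substrates. The genes described here are the rows whose ID begins with Slc, a family number, the letter a and a member number, and whose counts sum to 600 or more over the 6 libraries. There were 145 such genes of 345 IDs of this form and of 24015 IDs in all. By symbol, 140 of them encode transporters and 5 do not. The transporters were sorted by family into amino acid (20 genes, peptide carriers included), sugar (12), nucleoside (5), nucleotide sugar (5), ion (39), mitochondrial Slc25 (37) and other carriers (22). All 145 passed the filter on low counts, as did 62 of the 200 IDs below the sum, which are not described further. Just inside the sum lay Slc25a35 (617 counts) and Slc39a4 (640), and just outside lay Slc9a2 (552) and Slc18a2 (512).

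RNA was sequenced from sorted mouse DN3 thymocytes, CD4- and CD8- cells with low CD44 and high CD25 that rearrange the T cell receptor beta locus, in 3 groups of 2 libraries. The p45-deficient group (genotype p45-/-) keeps short proteins of Tcf1, an HMG-box factor encoded by Tcf7, but not its long isoforms. The Tcf1-deficient group (Lck-cre+ Tcf1 fl/fl) has floxed Tcf1 alleles that are deleted where the T-lineage Lck promoter drives Cre, and the control group is labelled wild type, so it carries no Cre by its label. The labels give no mouse age and do not tie libraries to separate mice, so p-values measure the spread between libraries, which may be technical.

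Growing and dividing thymocytes draw on these carriers for fuel and building blocks. Plasma membrane carriers of the Slc1, Slc7, Slc38 and Slc43 families bring in amino acids, Slc2 proteins let glucose in, Slc16 proteins pass lactate and pyruvate, Slc11, Slc30 and Slc39 proteins move iron and zinc, and Slc25 proteins line the inner mitochondrial membrane, exchanging nucleotides, phosphate, amino acids and other metabolites with the matrix. Tcf1 binds DNA through its HMG box at sites with the core CTTTGA, most often followed by A or T, and represses or activates genes with its partners.

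Promoter windows are shown for the 3 genes whose change in p45-deficient cells was called in every fit with 1 library left out (Slc27a1, Slc22a17 and Slc45a3), and for Slc25a22, the other called gene with CTTTGAT in a listed window. Sequences are from RefSeq on GRCm38.p6, another build than the mm9 of the count files, and cover the 250 bases before an annotated start, 5′ to 3′ on the gene's strand. They lie at chr8:71570344-71570593 on the plus strand for Slc27a1, chr14:54913133-54913382 on the minus strand for Slc22a17, chr1:131962665-131962914 on the plus strand for Slc45a3 and chr7:141434595-141434844 on the minus strand for Slc25a22. Capitals mark CTTTGA on either strand, with the T that follows where there is one.
Slc27a1: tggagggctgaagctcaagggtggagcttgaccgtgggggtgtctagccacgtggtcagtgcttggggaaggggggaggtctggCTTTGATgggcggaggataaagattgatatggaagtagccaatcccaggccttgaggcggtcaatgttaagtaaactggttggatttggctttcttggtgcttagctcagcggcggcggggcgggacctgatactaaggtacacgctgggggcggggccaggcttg
Slc22a17: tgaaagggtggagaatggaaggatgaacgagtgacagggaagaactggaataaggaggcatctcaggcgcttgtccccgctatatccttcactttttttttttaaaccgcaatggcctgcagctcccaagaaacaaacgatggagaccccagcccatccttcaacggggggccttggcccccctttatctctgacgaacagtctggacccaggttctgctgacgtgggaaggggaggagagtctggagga
Slc45a3: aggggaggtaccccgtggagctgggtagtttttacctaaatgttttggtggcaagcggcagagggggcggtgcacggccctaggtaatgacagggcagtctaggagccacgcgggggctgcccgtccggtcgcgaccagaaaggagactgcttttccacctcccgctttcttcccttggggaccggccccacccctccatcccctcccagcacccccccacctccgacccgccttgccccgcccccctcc
Slc25a22: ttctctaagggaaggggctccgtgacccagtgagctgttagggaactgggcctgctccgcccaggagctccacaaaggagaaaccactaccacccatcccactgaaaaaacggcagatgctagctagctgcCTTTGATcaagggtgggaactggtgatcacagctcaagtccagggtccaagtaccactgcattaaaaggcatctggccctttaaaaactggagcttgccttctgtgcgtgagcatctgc
Slc27a1 and Slc25a22 each held 1 CTTTGAT, starting 166 and 119 bases before the annotated start, in 1 of the 3 windows listed for each gene, and that window was the one chosen for display. The Slc22a17 and Slc45a3 windows held no CTTTGA on either strand. Sequence just after the annotated start was looked for in GENCODE transcripts of the same gene. It was found for Slc22a17 and Slc25a22 but not for Slc27a1 or Slc45a3, so the starts used for Slc27a1 and Slc45a3 are less sure. The promoter table held 108 of the 145 genes, with 144 windows. CTTTGA on either strand was in 13.8% of all 32851 windows of this length, in 13.2% of the solute carrier windows, in 20.7% of the 29 windows of genes called in either comparison that gave calls, and in 11.3% of the 115 windows of genes not called. For the longer CTTTGAT, whose matches are also matches to CTTTGA, the shares were 3.21%, 4.86%, 6.9% and 4.35%, over the same sets. For CTTTGAA, the form followed by A, they were 4.46%, 5.56%, 3.45% and 6.09%, so that called genes had the lowest share. These are letter matches in a short window and say nothing of binding.

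Library totals ran from 19640524 to 28107031 counts, and 3 counts corresponded to between 0.11 and 0.145 CPM, that is counts relative to a library size scaled by the trimmed mean of M-values (TMM). Tcf7 stood at 2340 and 2414 CPM in p45-deficient, 979 and 976 CPM in Tcf1-deficient and 2088 and 1810 CPM in control libraries. Counts per gene do not separate its isoforms. The 10 DN3 markers chosen (among them Rag1, Il2ra, Ptcra and Cd3e) were present in each library, with summed levels from 7430 to 11200 CPM. Single markers differed: in Tcf1-deficient against p45-deficient cells 2 of the 10 were called lower and 0 higher, against 10.4% of all genes called. Of the 10, 6 lay above 0 and 4 below, with a lowest log2 fold change of −1.83. In Tcf1-deficient against control cells 8 of the 10 lay below 0 and none was called. Summed myeloid markers stood at 6.87 to 14 CPM. Thymic stroma markers summed to 65 to 114 CPM and erythroid markers to 0.749 to 4.41 CPM. The stroma sum was mostly Epcam, at 62.7 to 112 CPM, while Foxn1 was at 0 in 4 of the 6 libraries and Col3a1 in 5. The 2 Tcf1-deficient libraries stood apart from each other on the list of double-positive and mature T cell genes, with 848 CPM in replicate 1 and 140 CPM in replicate 2, against 372 and 343 CPM in p45-deficient and 258 and 237 CPM in control libraries. Cd4 was at 372 and 46.1 CPM in these Tcf1-deficient libraries, and dendritic cell markers summed to 122 and 23.7 CPM. Results on Tcf1-deficient cells are therefore also given without each of these libraries.

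Loss of the long Tcf1 isoforms alone was set against the control. Of the 145 solute carrier genes, 9 rose and 18 fell, and 118 were not called at an adjusted p below 0.05 by edgeR's quasi-likelihood test over all genes. By p, the falls were led by Slc27a1, a fatty acid transport protein with acyl-CoA synthetase activity, and Slc22a17, the lipocalin-2 receptor. By p, the rises were led by Slc45a3, a sugar carrier also known as prostein, and Slc15a1, the peptide transporter PEPT1. The share called, 18.6%, lay near the background: 16% of the 12939 genes tested were called, 8.47% higher and 7.55% lower, and 17.9% of the 10008 genes with the same minimum of 600 counts (9.96% higher and 7.93% lower). The median log2 fold change was −0.082 over the solute carrier genes and 0.046 over all tested genes. With library totals in place of TMM scaling the median of all genes moved to −0.06, a shift of over 0.1, and the solute carrier calls became 5 higher and 21 lower, against 721 higher and 1281 lower over all genes (1096 and 977 with TMM). Summed dendritic, B cell and myeloid markers also lay lower in p45-deficient libraries. Those of double-positive and mature T cells and of thymic stroma lay higher. Myeloid markers summed to 6.87 and 9.33 CPM in p45-deficient against 14 and 11.3 CPM in control libraries. Of the 4 tested, 3 had a log2 fold change above 0 and 1 below, and none was called. Erythroid sums overlapped (4.41 and 2.2 against 2.66 and 1.03 CPM). Of the 2 erythroid markers tested 1 was called higher, with Epor at 3.93 and 2.01 against 0.628 and 0.458 CPM. Epcam made up most of the stroma sum, at 78.1 and 89.4 CPM in p45-deficient against 65.8 and 71.4 CPM in control libraries. None of the 3 stroma markers tested was called. The 6 dendritic cell markers summed to 29.9 and 31 CPM in p45-deficient against 85.6 and 42.1 CPM in control libraries, and all 5 that were tested lay lower without overlap (median log2 fold change −1.391), though none was called. The 6 B cell markers summed to 16.1 and 13.5 CPM in p45-deficient against 35.4 and 28.2 CPM in control libraries, mostly Cd79b (15.7 and 13.3 against 25.7 and 27.1 CPM), and 1 of the 3 tested was called lower. Pax5 was at 0 in both p45-deficient libraries and in control replicate 2. The part of these markers in the solute carrier falls was not tested. None of the 27 called genes changed sign under any setting tried. In each of them the p45-deficient libraries lay outside the control libraries, so leaving 1 library out could scarcely reverse the sign. Single libraries moved the count widely. With either p45-deficient library omitted it was 4, with either control library omitted it was 6, and it was 53 or 51 when Tcf1-deficient replicate 1 or 2 was omitted. The calls on Slc27a1, Slc22a17 and Slc45a3 held in each of these 6 fits, and 19 of the 27 held only in the fits without a Tcf1-deficient library, which keep all 4 libraries compared.

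**Figure D1:**
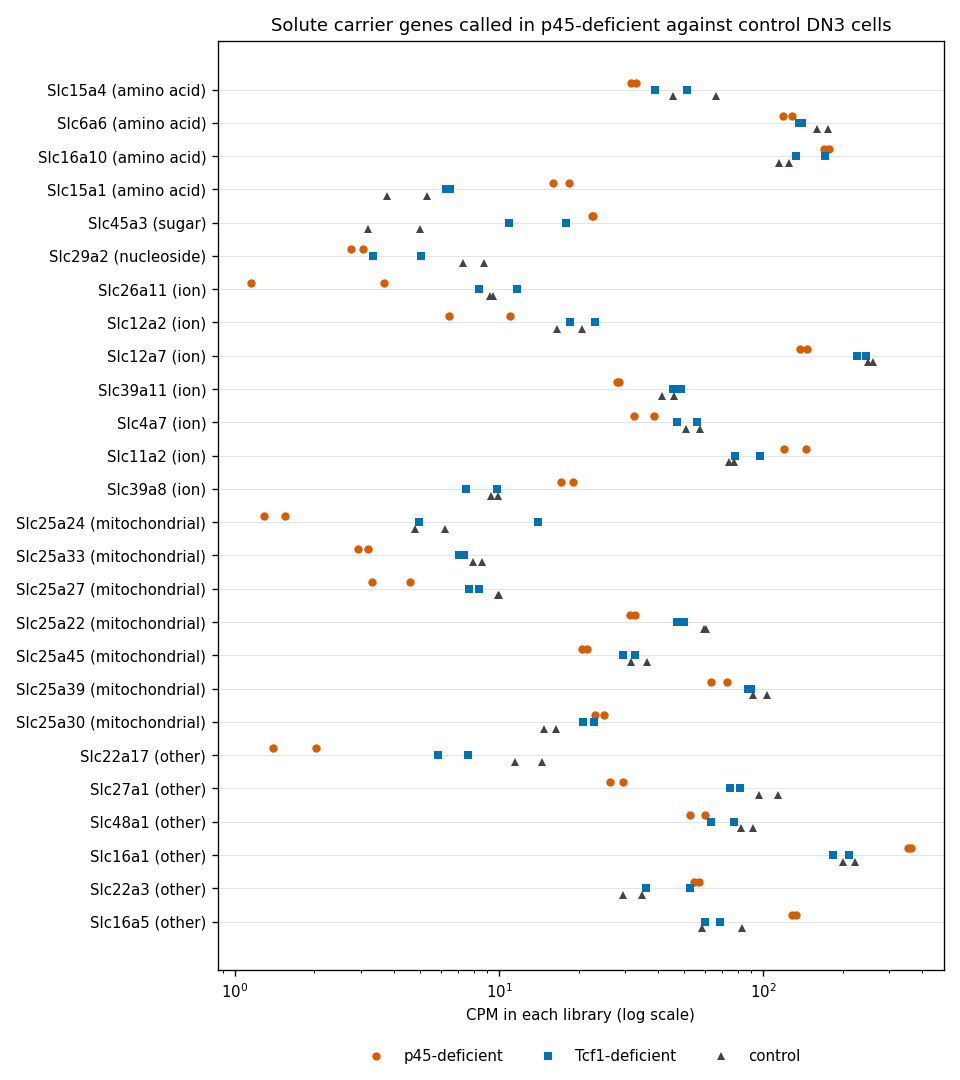
Level of 26 of the 27 solute carrier genes called in p45-deficient against control cells, 1 row per gene with its class in brackets and 1 point per library, in CPM on a log scale. Circles are p45-deficient, squares Tcf1-deficient and triangles control libraries; in each row the 2 p45-deficient points lie outside the 2 control points, from Slc22a17 at 1.39 and 2.02 against 11.5 and 14.5 CPM to Slc16a1 at 354 and 362 against 201.0 and 223 CPM.

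Carriers of lipids, monocarboxylates and organic ions, which with the vitamin carriers make up the class of other transporters, moved in both directions, with 3 of 22 higher and 3 lower. Slc27a1 had 26.3 and 29.5 CPM in p45-deficient, 74.6 and 81.5 CPM in Tcf1-deficient and 114 and 96.1 CPM in control libraries. The p45-deficient libraries lay far below the other 4, and the Tcf1-deficient libraries lay between those and the controls. It fell 3.76-fold (log2 fold change −1.91, SE 0.14, adjusted p = 0.00131, and 9.53e-05 to 0.0186 over the 6 fits with 1 library left out). Slc22a17 had 2.02 and 1.39 CPM in p45-deficient, 7.61 and 5.87 CPM in Tcf1-deficient and 14.5 and 11.5 CPM in control libraries. It fell 7.54-fold (log2 fold change −2.92, SE 0.33, adjusted p = 0.00387, and 0.000457 to 0.0302 with 1 library left out), and the order of the 3 groups was that of Slc27a1, with no overlap between them. Slc48a1, the haem transporter of endosomes and lysosomes, had 52.9 and 60.4 CPM in p45-deficient, 63.4 and 77.5 CPM in Tcf1-deficient and 82.2 and 91.7 CPM in control libraries. It fell 1.54-fold (adjusted p = 0.0323, up to 0.26 with 1 library left out).

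The 3 rises in this class were of carriers of the Slc16 and Slc22 families. Slc16a1, the lactate and pyruvate carrier MCT1, had 362 and 354 CPM in p45-deficient, 184 and 211 CPM in Tcf1-deficient and 223 and 201.0 CPM in control libraries. It rose 1.69-fold (log2 fold change 0.76, SE 0.12, adjusted p = 0.0105, up to 0.107 with 1 library left out), and the Tcf1-deficient and control libraries overlapped. Slc16a5, which encodes the monocarboxylate family member MCT6, had 133 and 128 CPM in p45-deficient, 59.9 and 68.5 CPM in Tcf1-deficient and 82.8 and 58.7 CPM in control libraries. It rose 1.85-fold (adjusted p = 0.0187, up to 0.131 with 1 library left out, and still called without control replicate 1). Slc22a3, the organic cation transporter OCT3, had 56.9 and 54.5 CPM in p45-deficient, 35.8 and 52.6 CPM in Tcf1-deficient and 29.3 and 34.8 CPM in control libraries. It rose 1.74-fold (adjusted p = 0.0364, up to 0.237 with 1 library left out and 0.0563 with library totals). The choline transporter-like gene Slc44a2 had the highest mean CPM of this class, with 290.4 and 311 CPM in p45-deficient, 409 and 338 CPM in Tcf1-deficient and 310.4 and 341 CPM in control libraries, and p45-deficient and control libraries overlapped.

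Among the amino acid and peptide carriers, 2 of 20 rose and 2 fell, and the class median was −0.238. Slc15a1 takes up short peptides and had 18.4 and 16 CPM in p45-deficient, 6.29 and 6.49 CPM in Tcf1-deficient and 3.77 and 5.34 CPM in control libraries. It rose 3.76-fold (log2 fold change 1.91, SE 0.26, adjusted p = 0.00616), a call that was lost without control replicate 1 or p45-deficient replicate 1 (adjusted p up to 0.0614). Slc16a10, the aromatic amino acid carrier TAT1, had 171 and 177 CPM in p45-deficient, 133 and 172 CPM in Tcf1-deficient and 115 and 125 CPM in control libraries. It rose 1.45-fold with an adjusted p of 0.0494 by edgeR, which became 0.0929 with library totals and 0.0759 with upper-quartile scaling, and reached 0.283 with 1 library left out. Slc15a4, the lysosomal histidine and peptide carrier, had 32.9 and 31.6 CPM in p45-deficient, 38.9 and 51.5 CPM in Tcf1-deficient and 45.4 and 66 CPM in control libraries. It fell 1.73-fold (adjusted p = 0.0465, up to 0.229 with 1 library left out). The taurine carrier gene Slc6a6 had 119 and 129 CPM in p45-deficient, 137 and 140 CPM in Tcf1-deficient and 176 and 159 CPM in control libraries. It fell 1.35-fold (adjusted p = 0.0435, up to 0.33 with 1 library left out), with no overlap among the 3 groups.

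The well-known amino acid importers of dividing T cells were not called. Slc38a1, a glutamine carrier with the highest mean CPM of the class, had 478 and 487 CPM in p45-deficient, 399 and 573 CPM in Tcf1-deficient and 536 and 513 CPM in control libraries. Slc7a5, the light chain of the leucine transporter LAT1, had 154 and 153 CPM in p45-deficient, 140 and 182 CPM in Tcf1-deficient and 245 and 189 CPM in control libraries. Its heavy chain gene Slc3a2 had 107 and 113 CPM in p45-deficient, 143 and 134 CPM in Tcf1-deficient and 118 and 132 CPM in control libraries. For Slc1a5, the neutral amino acid carrier ASCT2, the levels were 183 and 194 CPM in p45-deficient, 187 and 189 CPM in Tcf1-deficient and 239 and 224 CPM in control libraries. Slc3a2, Slc7a5 and Slc1a5 were picked for their role, outside the rule for named genes, after their values had been seen. Log2 fold changes in p45-deficient against control cells were −0.12 for Slc38a1 (adjusted p = 0.666), −0.51 for Slc7a5 (0.0894), −0.18 for Slc3a2 (0.322) and −0.3 for Slc1a5 (0.102). In all 4 genes both p45-deficient libraries lay below both controls, which was so for 65 of the 145 genes and 31.3% of all genes tested. Summed over the class, amino acid carriers stood at 2198 and 2276 CPM in p45-deficient, 2235 and 2522 CPM in Tcf1-deficient and 2594 and 2590 CPM in control libraries, and this sum was given no test. In bulk libraries, fewer cells of a kind and less RNA per cell cannot be told apart.

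Of the sugar carriers, 1 of 12 was called, Slc45a3. It had 22.5 and 22.6 CPM in p45-deficient, 10.9 and 17.9 CPM in Tcf1-deficient and 3.19 and 5.04 CPM in control libraries, so that the Tcf1-deficient libraries lay between the other groups. It rose 5.45-fold (log2 fold change 2.44, SE 0.32, adjusted p = 0.0057, and 0.000454 to 0.0471 with 1 library left out). Slc37a2, a sugar phosphate exchanger of the endoplasmic reticulum, had 23.6 and 27.9 CPM in p45-deficient against 17.4 and 12.9 CPM in control libraries and was not called (log2 fold change 0.77, adjusted p = 0.0551). It passed by DESeq2 (adjusted p = 0.0287), without the low-count filter (0.0455) and without Tcf1-deficient replicate 1 (0.0247) or 2 (0.0172). The glucose transporter gene Slc2a1 (GLUT1) had 20.6 and 33.8 CPM in p45-deficient, 31 and 26.3 CPM in Tcf1-deficient and 29 and 25 CPM in control libraries. Slc2a3 (GLUT3) had 25 and 35.7 CPM in p45-deficient, 36.3 and 35 CPM in Tcf1-deficient and 26.2 and 25.2 CPM in control libraries. For both glucose carriers, picked for their role after their values had been seen, the p45-deficient and control libraries overlapped and no call was made.

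Nucleoside carriers showed 1 fall among 5 genes. Slc29a2, the equilibrative carrier ENT2, had 2.76 and 3.06 CPM in p45-deficient, 3.34 and 5.08 CPM in Tcf1-deficient and 8.80 and 7.29 CPM in control libraries. It fell 2.76-fold (log2 fold change −1.47, SE 0.33, adjusted p = 0.0284, up to 0.194 with 1 library left out). Its more abundant relative Slc29a1, ENT1, had 224 and 251 CPM in p45-deficient, 176 and 179 CPM in Tcf1-deficient and 199 and 174 CPM in control libraries. That difference from control had the other sign and was not called (log2 fold change 0.35, adjusted p = 0.0928, and 0.0471 without Tcf1-deficient replicate 2). None of the 5 nucleotide sugar carriers, which feed glycosylation in the Golgi, was called. The nearest were Slc35a3, a UDP-N-acetylglucosamine carrier, at 46.2 and 41.7 CPM in p45-deficient against 30.6 and 30.1 CPM in control libraries (log2 fold change 0.54, adjusted p = 0.0703), and Slc35a5 (log2 fold change 0.41, adjusted p = 0.245). The Slc35a3 difference was called without Tcf1-deficient replicate 1 (adjusted p = 0.0215) or 2 (0.014).

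Ion carriers showed 6 falls and 2 rises among 39 genes. Of the 15 that move protons, bicarbonate, sodium, potassium, chloride or other anions, 5 fell and none rose. A negative log2 fold change was seen in 13 of the 15 (median −0.296). Over all genes tested, 7.55% were called lower and 46.5% had a negative value. Slc12a7, the potassium-chloride cotransporter KCC4, has the highest mean CPM of the ion carriers and had 146 and 138 CPM in p45-deficient, 225 and 244 CPM in Tcf1-deficient and 260.0 and 249 CPM in control libraries. It fell 1.79-fold (log2 fold change −0.84, SE 0.11, adjusted p = 0.00593), and the call was lost without p45-deficient replicate 1 or 2 (adjusted p up to 0.077). Slc12a2, the sodium-potassium-chloride cotransporter NKCC1, had 6.47 and 11 CPM in p45-deficient, 23.1 and 18.5 CPM in Tcf1-deficient and 20.6 and 16.6 CPM in control libraries. It fell 2.13-fold (adjusted p = 0.0425, up to 0.251 with 1 library left out).

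Slc4a7, a sodium-bicarbonate cotransporter, had 32.5 and 38.5 CPM in p45-deficient, 47.1 and 56.0 CPM in Tcf1-deficient and 50.8 and 57.5 CPM in control libraries and fell 1.53-fold (adjusted p = 0.0391, up to 0.293 with 1 library left out). Slc26a11, an anion exchanger family member, fell 3.83-fold (adjusted p = 0.0413, up to 0.162), but its p45-deficient libraries differed from each other, at 3.68 and 1.15 CPM, against 11.7 and 8.37 CPM in Tcf1-deficient and 9.48 and 9.28 CPM in control libraries. In these genes, and in Slc12a7 and Slc12a2, both p45-deficient libraries lay below the other 4 libraries.

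Of the 22 metal carriers 2 rose and 1 fell. Slc11a2, the iron importer DMT1, had 145 and 120.2 CPM in p45-deficient, 77.9 and 97.3 CPM in Tcf1-deficient and 74.3 and 77.1 CPM in control libraries. It rose 1.75-fold (log2 fold change 0.81, SE 0.15, adjusted p = 0.0166, up to 0.152 with 1 library left out). Slc39a8, the zinc, manganese and iron importer ZIP8, had 19.1 and 17.1 CPM in p45-deficient, 7.47 and 9.82 CPM in Tcf1-deficient and 9.33 and 9.89 CPM in control libraries. It rose 1.89-fold (adjusted p = 0.0336, up to 0.234 with 1 library left out, and 0.0519 with library totals). Another zinc carrier of the same family, Slc39a11, went the other way, with 28.1 and 28.4 CPM in p45-deficient, 45.5 and 48.7 CPM in Tcf1-deficient and 41.2 and 45.9 CPM in control libraries. It fell 1.54-fold (adjusted p = 0.0221, up to 0.191 with 1 library left out). Neither of the 2 phosphate carriers, Slc20a1 and Slc20a2, was called.

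Of the 37 mitochondrial carriers, 6 fell and 1 rose (18.9% called, against 16% of all genes tested). The class as a whole was balanced, with 18 log2 fold changes above 0 and 19 below, and a median of −0.019. Slc25a22, a glutamate carrier, had 31.4 and 32.7 CPM in p45-deficient, 50.2 and 47.2 CPM in Tcf1-deficient and 59.7 and 60.7 CPM in control libraries. It fell 1.88-fold (log2 fold change −0.91, SE 0.12, adjusted p = 0.00566), and the call was lost without p45-deficient replicate 1 or 2 (adjusted p up to 0.079). Slc25a33, a pyrimidine nucleotide carrier, had 3.20 and 2.92 CPM in p45-deficient, 7.34 and 7.08 CPM in Tcf1-deficient and 8.61 and 7.98 CPM in control libraries. It fell 2.7-fold (adjusted p = 0.015, up to 0.112 with 1 library left out). Slc25a27, an uncoupling protein family member, had 4.6 and 3.3 CPM in p45-deficient, 8.40 and 7.66 CPM in Tcf1-deficient and 9.86 and 9.96 CPM in control libraries and fell 2.5-fold (adjusted p = 0.0212, up to 0.156). Slc25a24, a calcium-regulated ATP-magnesium/phosphate carrier, had 1.54 and 1.29 CPM in p45-deficient, 14 and 4.99 CPM in Tcf1-deficient and 4.79 and 6.22 CPM in control libraries and fell 3.86-fold (adjusted p = 0.0433, up to 0.215).

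Smaller falls were seen in Slc25a39, the mitochondrial glutathione importer, and in Slc25a45. Slc25a39 had 63.7 and 72.8 CPM in p45-deficient, 90.1 and 87.5 CPM in Tcf1-deficient and 104 and 91.6 CPM in control libraries, a 1.43-fold fall (adjusted p = 0.0356, up to 0.298 with 1 library left out). Slc25a45 had 20.6 and 21.5 CPM in p45-deficient, 32.6 and 29.6 CPM in Tcf1-deficient and 31.6 and 36.2 CPM in control libraries, a 1.61-fold fall (adjusted p = 0.0241, up to 0.197). The one mitochondrial carrier to rise was Slc25a30, an uncoupling protein relative, with 25 and 23.1 CPM in p45-deficient, 22.9 and 20.7 CPM in Tcf1-deficient and 14.8 and 16.4 CPM in control libraries. Its 1.54-fold rise (adjusted p = 0.0423) did not pass with library totals (0.072), upper-quartile scaling (0.0621), no low-count filter (0.0667) or a replicate block (0.0724). Nor did it hold with 1 of the 4 compared libraries left out. The most abundant genes of the class were not called. Slc25a5, an ADP/ATP exchanger with the highest mean CPM of all the carriers named here, had 816 and 877 CPM in p45-deficient libraries. It had 525 and 675 CPM in Tcf1-deficient and 621 and 620 CPM in control libraries. Its p45-deficient libraries lay above all the others, but the rise over control did not pass (log2 fold change 0.45, adjusted p = 0.0691). Close copies of such a gene may share reads, since the handling of reads with several matches is not given in the sources used here. Summed over the class, mitochondrial carriers stood at 2722 and 2863 CPM in p45-deficient, 2256 and 2629 CPM in Tcf1-deficient and 2544 and 2562 CPM in control libraries.

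**Figure D2:**
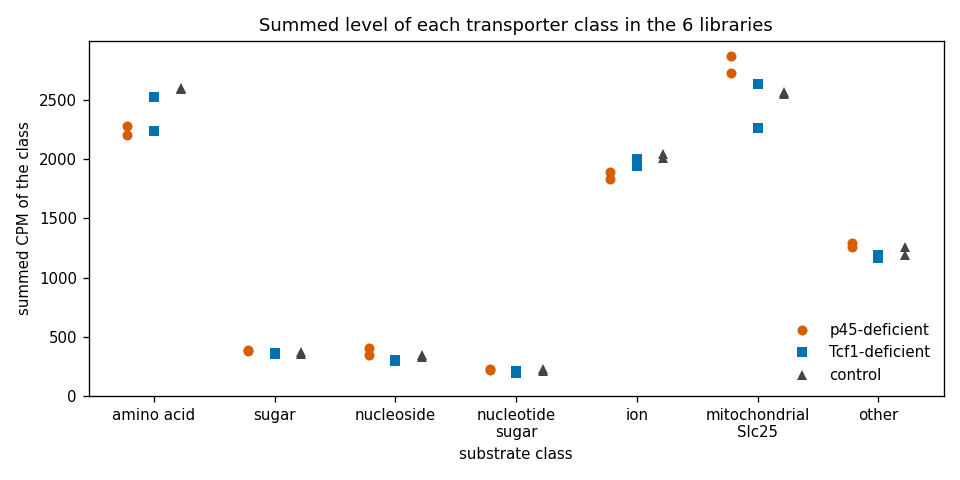
Summed CPM of each transporter class in each library, with circles for p45-deficient, squares for Tcf1-deficient and triangles for control libraries. Amino acid carriers sum to 2198 and 2276 CPM in p45-deficient against 2594 and 2590 CPM in control libraries, while mitochondrial carriers sum to 2722 and 2863 against 2544 and 2562 CPM; a few abundant genes dominate each sum.

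Tcf1-deficient cells were next set against control cells. None of the 145 solute carrier genes was called by edgeR's quasi-likelihood test, as was so for all 12939 genes tested (a background of 0%). Tcf7 itself, at 979 and 976 CPM in Tcf1-deficient against 2088 and 1810 CPM in control libraries, was not called either (adjusted p = 0.0762). An absence of calls here is therefore not an absence of change. At an unadjusted p below 0.05 there were 23 solute carrier genes (background 7.91% of all genes, 1024 genes). DESeq2 called 3 solute carrier genes, of 145 genes over the whole table, and edgeR without the low-count filter called 1 of 33. Without Tcf1-deficient replicate 1 the count was 1, and without replicate 2 it was 9. Slc45a3 was the gene called in all of these, with 10.9 and 17.9 CPM in Tcf1-deficient against 3.19 and 5.04 CPM in control libraries. Its log2 fold change was 1.8 (SE 0.32, adjusted p = 0.278 by edgeR), with an adjusted p of 0.000192 by DESeq2, 0.0217 without the filter, 0.0404 without Tcf1-deficient replicate 1 and 0.0253 without replicate 2.

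Slc43a1, the branched-chain amino acid carrier LAT3, had 28.3 and 28.1 CPM in Tcf1-deficient against 49.9 and 45.6 CPM in control libraries (log2 fold change −0.76, SE 0.13, adjusted p = 0.227, and 0.000289 by DESeq2). The sodium-coupled sugar carrier gene Slc5a9, which has the highest mean CPM of the sugar class, had 28.8 and 52 CPM in Tcf1-deficient against 106 and 75.8 CPM in control libraries (log2 fold change −1.17, SE 0.29, adjusted p = 0.481, and 0.0108 by DESeq2). Both passed without Tcf1-deficient replicate 2 as well, at an adjusted p of 0.0212 and 0.00427. In each of these genes the Tcf1-deficient and control libraries did not overlap.

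In the other classes the members with the smallest p did not pass either, nor by DESeq2. Slc27a1 (log2 fold change −0.43) and Slc22a17 (−0.94) lay below control, and both had an adjusted p of 0.613 by edgeR. Slc29a2 (−0.93, adjusted p = 0.613) and the lysosomal nucleoside carrier gene Slc29a3 (−0.51, adjusted p = 0.618, and 0.036 without Tcf1-deficient replicate 2) were lower. The zinc exporter gene Slc30a4 had 25.5 and 31.7 CPM in Tcf1-deficient against 41.5 and 43 CPM in control libraries (log2 fold change −0.56, adjusted p = 0.613). Values for the remaining ones were −0.48 for Slc9a5, a sodium-proton exchanger, −0.43 for Slc43a2, the amino acid carrier LAT4, 0.48 for Slc25a30, 0.45 for Slc25a25, 0.15 for Slc35a1 and −0.18 for Slc35a4, each on the log2 scale and with an adjusted p of 0.613 or above by edgeR. The median over the solute carrier genes was −0.039 and over all genes 0.007.

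**Figure D3:**
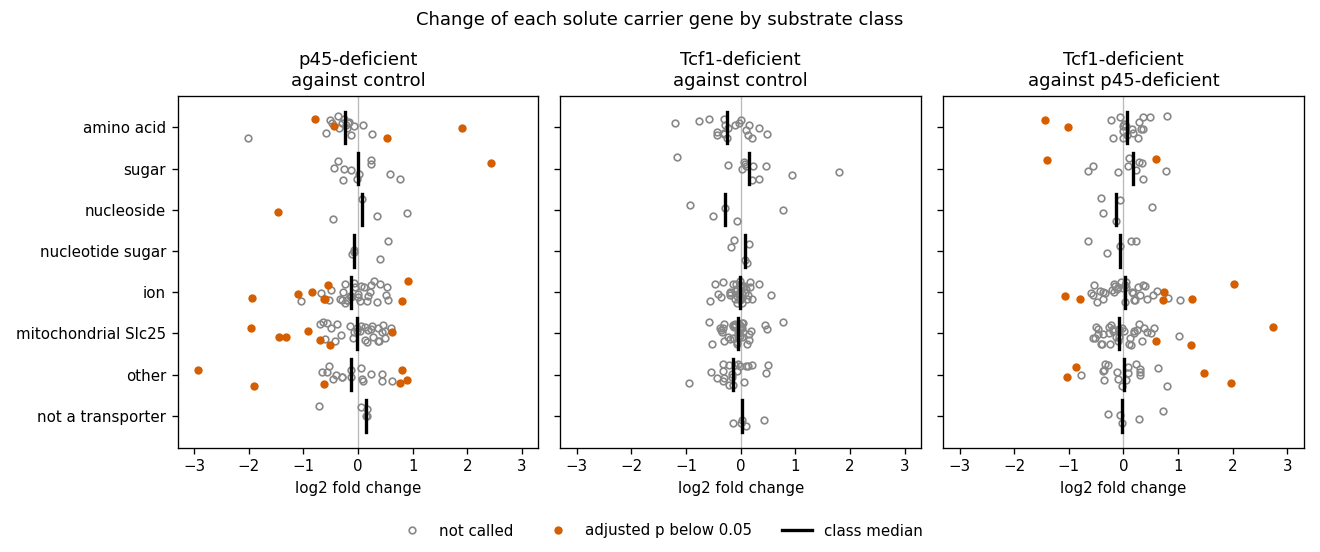
Log2 fold change of each of the 145 genes by class in the 3 comparisons, with filled points for genes called at an adjusted p below 0.05, open points for genes not called and a bar at the class median. Calls number 27 in p45-deficient against control, 0 in Tcf1-deficient against control and 17 in Tcf1-deficient against p45-deficient cells, and every class holds genes on both sides of 0 in the left panel.

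The direct comparison of Tcf1-deficient with p45-deficient cells tests whether the mutants differ from each other. It called 17 of the 145 genes, 10 higher and 7 lower in Tcf1-deficient cells. The background was 10.4% of all genes (5.05% higher and 5.36% lower) and 11.7% of those with 600 counts or more, and 11.7% of the solute carrier genes were called. With library totals the calls over all genes were 744 higher and 483 lower, against 654 and 694 with TMM, and the solute carrier calls 11 and 6. The solute carrier median was 0.013, against −0.013 over all genes. Omitting Tcf1-deficient replicate 1 or 2 gave 19 or 43 calls, omitting p45-deficient replicate 1 or 2 gave 2 or 1, and omitting either control library gave 9. This comparison and that of p45-deficient with control cells share the p45-deficient libraries, so their calls are not independent. The call on Slc27a1 alone held in all 6 fits with 1 library left out.

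Slc27a1 was 2.8-fold higher in Tcf1-deficient cells (log2 fold change 1.48, SE 0.14, adjusted p = 0.00345, up to 0.0461 with 1 library left out). Slc22a17 was 3.92-fold higher (log2 fold change 1.97, SE 0.32, adjusted p = 0.0158, up to 0.11). Their levels, given above, placed the Tcf1-deficient libraries above the p45-deficient ones without overlap. Among ion carriers, Slc12a7 (1.65-fold, adjusted p = 0.0136, up to 0.144), Slc12a2 (2.38-fold, adjusted p = 0.0384, up to 0.228), Slc26a11 (4.09-fold, adjusted p = 0.0466, up to 0.142) and Slc39a11 (1.67-fold, adjusted p = 0.0191, up to 0.187) were higher. Mitochondrial carriers contributed 3 higher genes and none lower. These were Slc25a22 (1.52-fold, adjusted p = 0.0261, up to 0.237), Slc25a33 (2.35-fold, adjusted p = 0.032, up to 0.2) and Slc25a24 (6.65-fold, adjusted p = 0.0241, up to 0.16). The fold of Slc25a24 rests on Tcf1-deficient replicate 1, at 14 CPM against 4.99 CPM in replicate 2, and its log2 value of 2.73 became 1.86 at the lowest when 1 library was left out. Slc45a4, a sugar carrier relative of Slc45a3, had 41.8 and 36.5 CPM in Tcf1-deficient against 23.7 and 28.1 CPM in p45-deficient libraries and was 1.51-fold higher (adjusted p = 0.0495, up to 0.336).

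Of the genes lower in Tcf1-deficient cells, Slc43a1 had the smallest p. It had 28.3 and 28.1 CPM in Tcf1-deficient against 54.8 and 59.0 CPM in p45-deficient libraries and was 2.02-fold lower (log2 fold change −1.01, SE 0.13, adjusted p = 0.00757, up to 0.0689 with 1 library left out). Slc5a9 had 28.8 and 52 CPM in Tcf1-deficient against 107 and 106 CPM in p45-deficient libraries and was 2.64-fold lower (adjusted p = 0.0325, up to 0.189, and 0.062 with no low-count filter). Slc15a1 (2.69-fold, adjusted p = 0.0201, up to 0.168), Slc16a5 (2.04-fold, adjusted p = 0.0178, up to 0.132), Slc16a1 (1.81-fold, adjusted p = 0.0118, up to 0.115) and Slc39a8 (2.1-fold, adjusted p = 0.0298, up to 0.219) were lower as well. The zinc exporter gene Slc30a4 had 25.5 and 31.7 CPM in Tcf1-deficient against 56.1 and 42.5 CPM in p45-deficient libraries and was 1.73-fold lower (adjusted p = 0.0387, up to 0.272, and 0.052 with library totals). Of the 17 calls, 8 were lost only when p45-deficient replicate 1 or 2 was left out. Those on Slc12a2, Slc30a4, Slc39a8 and Slc45a4 were lost in each omission but that of Tcf1-deficient replicate 2, and that on Slc26a11 in the omissions of control replicates 1 and 2, p45-deficient replicate 2 and Tcf1-deficient replicate 1. No nucleoside or nucleotide sugar carrier was called. The nearest were Slc29a1 (log2 fold change −0.42, adjusted p = 0.0696), Slc43a3, a purine nucleobase carrier (−0.37, adjusted p = 0.171), Slc35a3 (−0.65, adjusted p = 0.0523) and Slc35a5 (−0.3, adjusted p = 0.402). By DESeq2, Slc29a1 (adjusted p = 0.0379) and Slc35a3 (0.0217) passed, and Slc35a3 also without the low-count filter (0.044) and without Tcf1-deficient replicate 2 (0.00604).

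**Figure D4:**
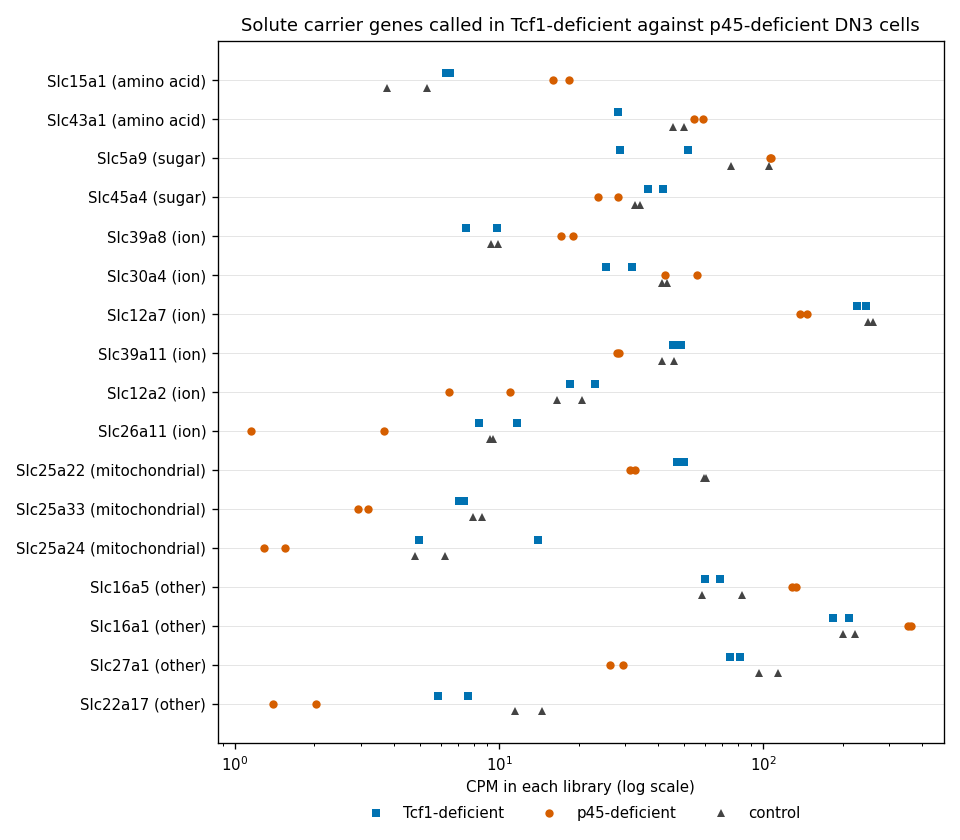
Level of the 17 solute carrier genes called in Tcf1-deficient against p45-deficient cells, in CPM on a log scale, with squares for Tcf1-deficient, circles for p45-deficient and triangles for control libraries. Squares and circles do not overlap in any row; in Slc43a1 the squares lie at 28.3 and 28.1 CPM and the circles at 54.8 and 59.0 CPM, with the control triangles at 49.9 and 45.6 CPM.

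Libraries of 1 genotype differed little from each other for most solute carriers. The median absolute log2 difference between the 2 libraries of a group was 0.116 in p45-deficient, 0.25 in Tcf1-deficient and 0.169 in control cells, against 0.108, 0.245 and 0.17 over all tested genes with 600 counts or more. A gap of more than 2-fold was seen in 2, 5 and 1 of the 145 genes in these groups (1.38%, 3.45% and 0.69%), against 0.859%, 5.08% and 1.86% of all tested genes with 600 counts or more. Slc15a2, the peptide transporter PEPT2, had such a gap in each group, at 2.46 and 25.7 CPM in p45-deficient, 45.3 and 3.33 CPM in Tcf1-deficient and 21.1 and 91.3 CPM in control libraries. The genes in this paragraph were chosen after their values were seen. The Slc15a2 levels of the 3 groups overlapped and no comparison called it. The concentrative nucleoside carrier gene Slc28a2 had 35.3 and 6.70 CPM in Tcf1-deficient replicates 1 and 2, beside 20.9 and 25.2 CPM in p45-deficient and 11 and 13.7 CPM in control libraries. In the same 2 Tcf1-deficient libraries Slc37a3 stood at 31.6 and 14.1 CPM, Slc25a24 at 14 and 4.99 CPM and Slc25a53 at 3.91 and 8.78 CPM. The double-positive and mature T cell markers given above, and the dendritic cell markers, differed between these libraries too, and their part in these gaps was not tested.

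**Figure D5:**
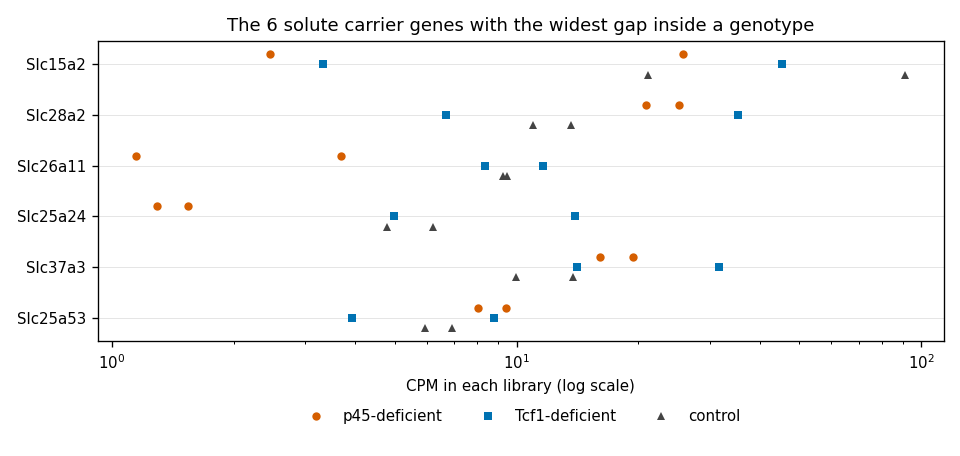
Level in each library, in CPM on a log scale, of the 6 solute carrier genes with the largest difference between 2 libraries of the same genotype. In Slc15a2 the 2 libraries of each genotype lie far apart, from 2.46 to 25.7 CPM in p45-deficient, 3.33 to 45.3 CPM in Tcf1-deficient and 21.1 to 91.3 CPM in control cells, whereas in Slc28a2 and Slc37a3 only the Tcf1-deficient libraries do.

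The 5 genes with a carrier symbol that are not carriers were called in no comparison. Slc9a3r1, the scaffold protein NHERF1, had 289 and 296 CPM in p45-deficient, 409 and 303 CPM in Tcf1-deficient and 253 and 275 CPM in control libraries. Slc4a1ap, the adaptor kanadaptin, ranged from 39.4 to 49 CPM over the 6 libraries. The pseudogene Slc2a4rg-ps ranged from 16.8 to 36.1 CPM, Slc7a6os from 46.2 to 53.4 CPM and Slc36a1os from 4.16 to 6.70 CPM. The last 2 lie opposite Slc7a6 and Slc36a1, and since the strand setting of the counting is not given in the sources used here, reads of such partners may not be separated.

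Genes that work with solute carriers were counted by list for context. Of 34 tested transporters outside the symbol rule, 2 rose and 3 fell in p45-deficient against control cells (14.7% called, against 16% of all genes). Slc35b1, the ATP/ADP exchanger of the endoplasmic reticulum, had 60.02 and 55.3 CPM in p45-deficient, 30.03 and 33.6 CPM in Tcf1-deficient and 32.2 and 37.1 CPM in control libraries (log2 fold change 0.74, SE 0.14, adjusted p = 0.0167). Mpc2, a subunit of the mitochondrial pyruvate carrier, rose 1.43-fold (adjusted p = 0.0452). Mfsd12 fell 1.96-fold (adjusted p = 0.032) and Mfsd10 fell 1.66-fold (adjusted p = 0.0297). Of 23 subunits and regulators of carriers, 3 rose and 3 fell (26.1% called). Ireb2, an iron-responsive RNA-binding protein that stabilises transferrin receptor mRNA, rose 1.47-fold (adjusted p = 0.0203) and Hif1a rose 1.46-fold (adjusted p = 0.0472). Pik3ip1, a negative regulator of PI3 kinase, fell 2.31-fold (adjusted p = 0.00983) and Pdk1 fell 1.39-fold (adjusted p = 0.0282). Outside the 4 smallest p, Mtor fell 1.45-fold (adjusted p = 0.0482) and Stk39 rose 7.36-fold (adjusted p = 0.0499). Of 14 amino acid response genes 2 rose, Mthfd2 (1.76-fold, adjusted p = 0.00956) and Psph (1.72-fold, adjusted p = 0.0345), and 1 fell, Cebpb (8.65-fold, adjusted p = 0.00887), 21.4% in all. Of 17 genes of lysosomal nutrient sensing, Lamtor2 rose (1.35-fold, adjusted p = 0.0489) and no other was called (5.88%). In Tcf1-deficient against control cells none of these genes was called. In Tcf1-deficient against p45-deficient cells the counts were 2 lower of the 34 transporters, 2 higher and 1 lower of the 23 subunits and regulators, 1 higher and 1 lower of the 14 amino acid response genes and 1 lower of the 17 nutrient sensing genes, which is 5.88%, 13%, 14.3% and 5.88% of these lists against 10.4% of all genes. The values in this paragraph come from edgeR's quasi-likelihood test and its adjustment over all genes, and single libraries were not left out for them.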

How the data were processed

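RNA of sorted mouse DN3 thymocytes was sequenced in 6 libraries, 2 per genotype, grouped by their labels. The authors deposited raw counts, whole numbers of reads for each gene symbol. TopHat2, featureCounts 1.5.0-p3, DESeq2 3.4 and mm9 are listed, without role or order, per the submitters' processing notes. Which annotation and strand setting were used is not stated there.

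The test was that of edgeR 4.0.16 (R 4.3.3): filterByExpr, TMM scaling, 1 mean per group over all 6 libraries (3 residual degrees of freedom), robust quasi-likelihood F test, two-sided, Benjamini-Hochberg adjustment over all tested genes within a comparison, called below 0.05. The common biological coefficient of variation was 0.215. Fold changes are fitted, SEs come from the F statistic, and CPM uses TMM-scaled sizes. CPM is not scaled by gene length, so levels are not compared between genes beyond naming the highest mean CPM. Counting error alone is covered by the level of 3 counts. The script was run on simulated counts drawn with the same spread in all groups, which the replicate gaps of these data do not share. The outcome is not reported here and lends no support to the calls. An exact permutation test of 2 against 2 cannot go below 0.333 and was not used. DESeq2 1.42.0, library totals, upper-quartile scaling, no filter, a replicate block and each library left out were tried as alternatives.

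The genes, classes and lists were chosen with earlier results of these data known. Named are the called genes (1 of them is not reported here), the 2 smallest p per class and comparison, each class's highest mean CPM, genes with a non-carrier symbol, the 2 genes on either side of the sum and up to 4 of each list, with exceptions stated in the text. Slc36a1os was moved out of the amino acid class after its values were seen.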

Additional observations from a re-analysis of the deposited data

How the results depend on the processing

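For p45-deficient against control cells the count of solute carrier calls (27) was 26 with library totals, 27 with upper-quartile scaling, 40 by DESeq2 and 35 without the filter, and ran from 4 to 53 with 1 library left out. Over all genes (2073) that range was 258 to 3923. For Tcf1-deficient against control cells, where none was called, DESeq2 gave 3 solute carrier genes and 145 genes in all, no filter gave 1 and 33, and omissions gave 0 to 9 and 0 to 894. For Tcf1-deficient against p45-deficient cells (17 and 1348) DESeq2 gave 39 and 2551, and omissions gave 1 to 43 and 105 to 3437. The cause was not tested. Omitting a library also lowers the residual degrees of freedom, and a lone library is then assumed to vary like the other groups.

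Replicate numbers carry no stated pairing. Deviations of same-numbered libraries correlated at −0.0286, −0.0141 and −0.0504 between groups. With a replicate block the 3 comparisons gave 23, 0 and 12 solute carrier calls and 1613, 0 and 920 over all genes. Calls against control lost with the block were Slc39a8 (edgeR adjusted p = 0.0527), Slc25a39 (0.0598), Slc12a2 (0.0617), Slc25a30 (0.0724) and Slc6a6 (0.0746). Those lost between the mutants were Slc25a33 (0.0542), Slc12a2 (0.0565), Slc30a4 (0.0589), Slc5a9 (0.0664) and Slc45a4 (0.0768). None of the 66 named values changed sign in any alternative, but they were picked for a small p within a comparison, so this is a weak check. The weakest carriers, at 1 to 3 CPM, stood well above the level of 3 counts (0.11 to 0.145 CPM). Counting error is still larger for them than for abundant carriers.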
